A study of Mus musculus with 6 samples.

Results

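The genes described here are the 2 receptors and 4 ligands of the platelet-derived growth factor (PDGF) family: Pdgfra, Pdgfrb, Pdgfa, Pdgfb, Pdgfc and Pdgfd. They were taken by symbol, are 6 of 30948 genes quantified, and 4 of them were among the 12040 genes tested. RNA-seq libraries were made from oligodendrocyte precursor cells (OPCs) of mouse spinal cord, 3 from GDE3 knockout (KO) and 3 from wild-type (WT) cells, all on the C57BL/6 background. The cells were selected from pups at postnatal day 0.5 with magnetic beads against A2B5, a surface epitope of glial precursors. Before RNA was taken, both genotypes were held for 16 h in a proliferative medium that contained 10 ng/mL PDGF, 10 ng/mL CNTF (ciliary neurotrophic factor) and 5 µM forskolin. The PDGF in the medium thus reached KO and WT cells alike, and the labels do not say which dimer it was. GDE3, the product of Gdpd2, is a membrane enzyme that releases surface proteins by cutting their lipid anchor. The labels name neither the deleted exons nor the cells in which the deletion acts, and do not say whether replicates came from separate animals. Each p-value thus rests on the spread among these 6 libraries, some of which may be technical. Wherever 3 values are listed for a genotype, they stand in the order of replicates 1, 2 and 3.

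PDGF ligands are secreted as dimers and bring 2 receptor tyrosine kinase chains together at the cell surface. The alpha receptor binds the A, B and C chains, and the beta receptor binds the B and D chains. PDGF-A and PDGF-B are cut by furin-like proteases inside the cell, whereas PDGF-C and PDGF-D carry an extra domain that is cut off outside it. In the developing spinal cord the alpha receptor is the classical marker of OPCs, and PDGF-A from neighbouring cells drives their division. The beta receptor is best known from pericytes and smooth muscle, which are recruited by PDGF-B from endothelial cells.

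The data were transcript assemblies, 1 per library, in which each transcript has exons and an FPKM value (fragments per kilobase of transcript, scaled to the mapped fragments of the library). WT replicate 1 stood apart, since 36.8% of what was assembled in it was shorter than 300 nt, where the other 5 libraries had 2.16% to 6.61%, and its median length was 438 nt, below their 1173 to 1830 nt. Read numbers are unknown; coverage per unit of FPKM put the libraries at 0.759 (WT replicate 1) to 1.000 (WT replicate 3) of the deepest. Gdpd2 over its whole length was 0.667, 1.497 and 1.78 FPKM in the KO and 0, 2.79 and 2.85 FPKM in the WT libraries, so the groups overlapped. With fragments of any length counted, its exon 9 was assembled over 0% in each KO library and 100% in each WT library. Exon 10 was at 0% in each KO library and at 21.9%, 100% and 100% in the WT libraries. OPC markers were high in all 6 libraries: Olig1 was 355.8 to 517.7 FPKM and Olig2 83.3 to 278.7 FPKM.

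The sequences that tell the PDGF transcripts apart are short. Pdgfra (ENSMUSG00000029231.15, chromosome 5, 75152292 to 75198215, plus strand, mm10) was assembled with 4 alternative first exons, all spliced to the same exon 2. The lines show 15 bases on each side of each splice, from GENCODE M21 transcripts, with the end of the first exon in capitals and exon 2 in lower case.
Pdgfra first exon 1: ACATAGAAGGAGAAGgtctcaggagctatg
Pdgfra first exon 2: CAGACGTGGGTGCAGgtctcaggagctatg
Pdgfra first exon 3: ATAGGTGACTCAAAGgtctcaggagctatg
Pdgfra first exon 4: CGCCGGAGCCAGCGGgtctcaggagctatg

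Pdgfra also has a last exon, exon 23 (75194953 to 75198215), that was assembled to its end in some libraries and for a few bases in others. The next line gives its 145 coding bases (75194953 to 75195097), which encode the tail of the receptor. The capitals mark the 29 bases assembled in all 6 libraries.
Pdgfra exon 23: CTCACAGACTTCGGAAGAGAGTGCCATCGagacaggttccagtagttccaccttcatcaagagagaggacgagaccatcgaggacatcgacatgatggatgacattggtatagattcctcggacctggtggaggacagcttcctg

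Among the ligands, Pdgfa has an exon 6 (138978622 to 138978690, 69 nt, chromosome 5, minus strand, mm10) that makes the long form of the protein, whose basic tail holds it at the cell surface and matrix. Its 53 coding bases (138978638 to 138978690) are shown in capitals. Pdgfc has an extra exon of 59 nt (chromosome 3, 81131018 to 81131076, plus strand) in an annotated transcript. Its first 15 bases and those of exon 2 are in capitals after the end of exon 1. Pdgfd has an exon 2 with an optional start of 18 nt (chromosome 9, 6288472 to 6288489, plus strand), in capitals with 12 bases on each side.
Pdgfa exon 6: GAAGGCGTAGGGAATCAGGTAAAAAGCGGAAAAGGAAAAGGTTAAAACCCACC
Pdgfc exon 1 to extra exon: acaaggaacagaacgGGAGGAACTATACCC
Pdgfc exon 1 to exon 2: acaaggaacagaacgGAGTGCAAGATCCCC
Pdgfd exon 1 to longer exon 2: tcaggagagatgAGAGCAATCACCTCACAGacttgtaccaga

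The 6 genes spanned a wide range of levels. A gene's level is the FPKM at each exonic base that no other annotated gene shares, averaged over these bases, which makes it comparable between genes of different length. Pdgfra was highest, with a mean of 99.4 FPKM over the 6 libraries (rank 522 of 30948 genes), followed by Pdgfa at 19.4 FPKM (rank 3540). Pdgfrb averaged 4.53 FPKM and Pdgfc 3.26 FPKM. Pdgfb at 0.617 FPKM and Pdgfd at 0.496 FPKM lay under the mean of 1 FPKM required for the test across genes.

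With this measure each of the first 4 steps in the order held in 6 of 6 libraries. On the log2(FPKM + 1) scale Pdgfra exceeded Pdgfa by 2.24 ± 0.54 (SD, n = 6 libraries), Pdgfa exceeded Pdgfrb by 1.90 ± 0.47, Pdgfrb exceeded Pdgfc by 0.36 ± 0.15 and Pdgfc exceeded Pdgfb by 1.42 ± 0.50. The exact two-sided sign-flip permutation test gave p = 0.03125 for each of these 4 steps, the smallest p that 6 libraries allow. Benjamini-Hochberg adjustment over the 5 steps compared gave 0.0391. The steps were picked by sorting the genes on their means in these same libraries, so these p-values are only a description. With 2 other gene values the adjusted p of the 4 steps was above 0.05. It was 0.0521 to 0.0781 over assembled bases alone and 0.0521 to 0.117 with the sum over transcripts. Over assembled bases Pdgfc exceeded Pdgfrb in WT replicate 1, at 4.06 against 4.03 FPKM. Pdgfb and Pdgfd were not separated, since Pdgfb was higher in 3 of 6 libraries (difference 0.12 ± 0.63, exact permutation p = 0.719). Over coding bases alone Pdgfd was the higher in 4 of 6 libraries (difference 0.25 ± 0.85, exact permutation p = 0.5).

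**Figure D1:**
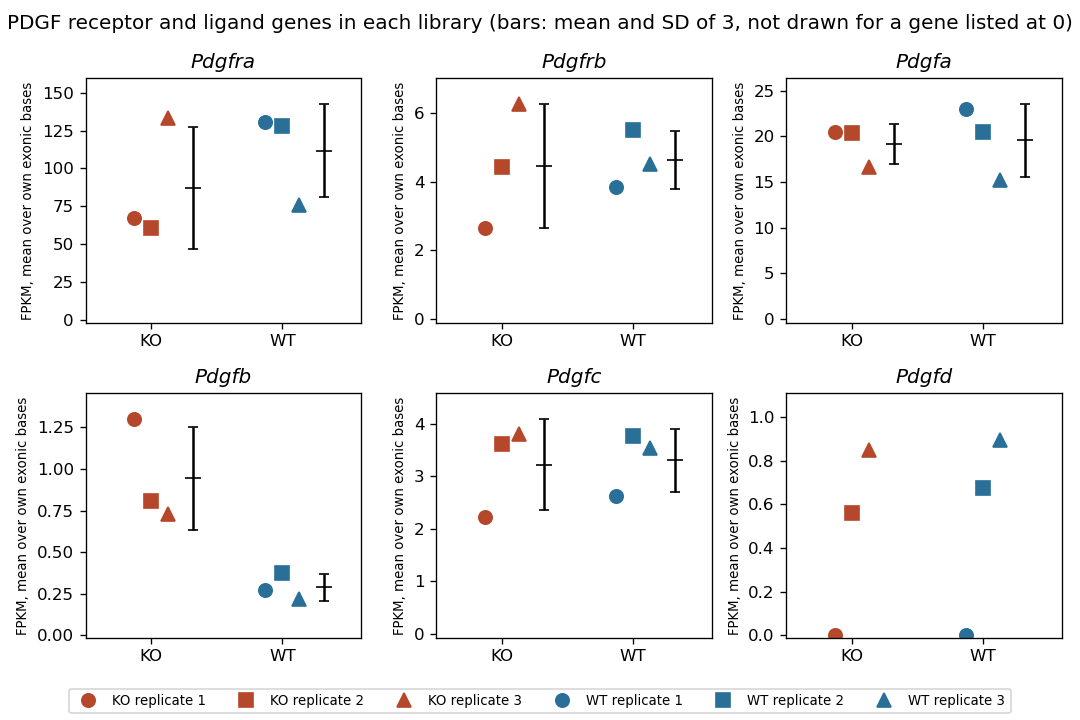
FPKM of the 6 genes, averaged over own exonic bases (vertical axis, 1 panel per gene), in 3 KO and 3 WT libraries; marker shapes give the replicate number and bars the mean and SD of 3 libraries. Pdgfra falls into a group at 60.7 to 76.02 FPKM and a group at 128.2 to 133.5 FPKM, each with both genotypes; Pdgfb is the gene whose KO libraries (0.728 to 1.30 FPKM) all lie above the WT libraries (0.218 to 0.375 FPKM).

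The main comparison asked whether the loss of GDE3 went with a different level of any receptor or ligand. None of the 4 tested genes passed. Across all 12040 genes, limma with Benjamini-Hochberg adjustment at 0.05 called 1 gene, or 0.00831%. That gene, Mettl23, is no PDGF gene and is named after its values were seen (log2 difference -3.15, limma adjusted p = 0.0202). In all, 195 genes had an unadjusted p under 0.05. The smallest adjusted p of a PDGF gene in any of 22 limma fits was 0.832. Pdgfra and Pdgfa were in all 22 fits, Pdgfrb and Pdgfc in 21, and Pdgfb and Pdgfd in 2.

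Pdgfra, the receptor that marks OPCs, was 67.4, 60.7 and 133.5 FPKM in the KO and 130.6, 128.2 and 76.02 FPKM in the WT libraries. KO replicates 1 and 2 and WT replicate 3 were low, the other 3 were high, and the groups overlapped. The means were 87.2 ± 40.2 FPKM in KO and 111.6 ± 30.9 FPKM in WT (SD, n = 3 each). The log2 difference, KO minus WT, was -0.40 (SE 0.36, 95% confidence interval -1.29 to 0.49, limma adjusted p = 0.9999).

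The low and high libraries were those without and with exon 23. Of its 3263 bases, 29, 32 and 3262 were assembled in the KO and 3262, 3251 and 36 in the WT libraries. In the 3 libraries with a short exon 23 the assembled transcripts stopped 109 to 116 bases before the last coding base. In the sequence printed above, KO replicate 1 ended with the last capital, and KO replicate 2 and WT replicate 3 a few bases into the lower case. The other 22 exons were joined in every library: all 22 junctions of the reference transcript were present in 6 of 6 libraries. The exon 23 pattern crossed the genotypes, being present in 1 of 3 KO and 2 of 3 WT libraries.

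Over coding bases alone, where exon 23 weighs little, Pdgfra was nearly level. It was 165.1, 144.7 and 166.8 FPKM in the KO and 164.2, 161.8 and 181.4 FPKM in the WT libraries. The lowest was KO replicate 2, the highest WT replicate 3, and the groups overlapped. The log2 difference was -0.09 (SE 0.13, 95% confidence interval -0.40 to 0.22, limma adjusted p = 1). In that fit 1 of 11953 genes was called, 0.00837%. This measure was added after the exon 23 pattern had been seen, and with it Pdgfra ranked 372 of 30948 genes.

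**Figure D2:**
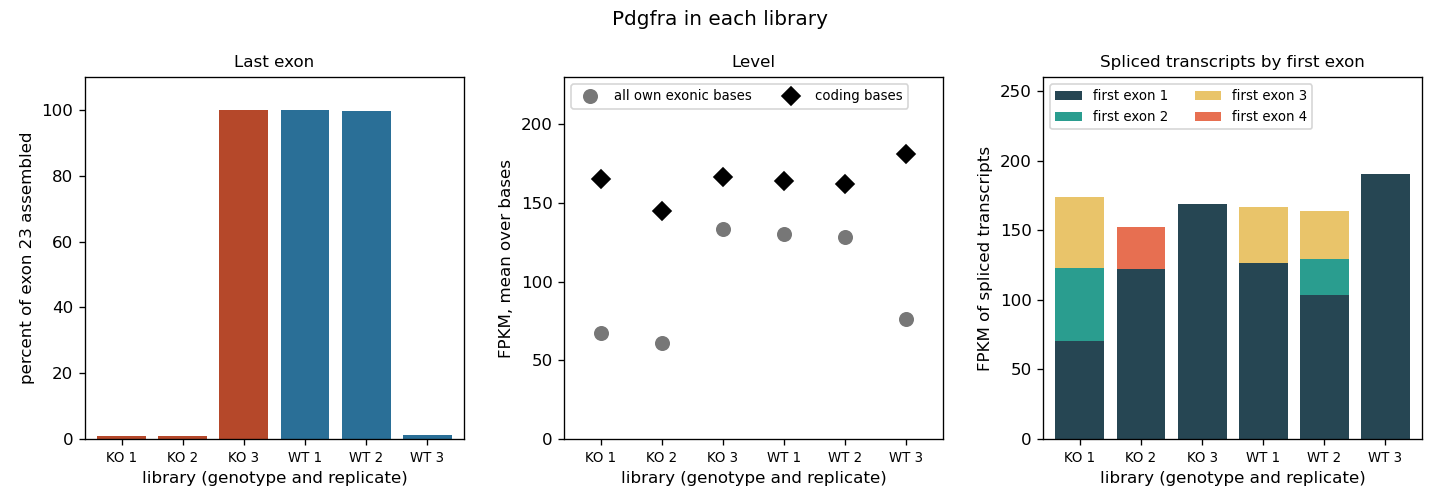
Pdgfra in the 6 libraries (horizontal axes): percent of exon 23 assembled (left), FPKM over all own exonic bases and over coding bases (middle), and FPKM of spliced transcripts stacked by first exon (right). KO replicates 1 and 2 and WT replicate 3 have about 1% of exon 23 and the 3 lowest all-base levels, while the coding-base levels lie between 144.7 and 181.4 FPKM in all 6.

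The first exon of Pdgfra varied between libraries of the same genotype. First exon 1 carried 70.7, 121.8 and 169.2 FPKM in the KO and 126.4, 103.1 and 190.4 FPKM in the WT libraries. This was 40.7%, 80.1% and 100% of the spliced Pdgfra transcripts in KO and 75.9%, 62.8% and 100% in WT, so both replicate 3 libraries used it alone. First exon 2 was found in KO replicate 1 (51.9 FPKM) and WT replicate 2 (26.2 FPKM). First exon 3 was found in KO replicate 1 (51.1 FPKM), WT replicate 1 (40.2 FPKM) and WT replicate 2 (34.9 FPKM). First exon 4 was spliced in KO replicate 2 only (30.3 FPKM). First exons 1 to 3 were thus found spliced in both genotypes, and the splice from first exon 4 rests on 1 library. Unspliced pieces without a strand lay at first exon 4 in KO replicate 1 (26.8 FPKM) and WT replicate 2 (22.0 FPKM). The assembled starts of first exon 1 lay 68 to 181 bases before the start that RefSeq gives for the gene on the same build (75152251).

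Pdgfrb (ENSMUSG00000024620.11), the beta receptor, was 2.66, 4.43 and 6.25 FPKM in the KO and 3.83, 5.503 and 4.51 FPKM in the WT libraries. The lowest 2 were the replicate 1 libraries, the highest was KO replicate 3, and the groups overlapped. The means were 4.45 ± 1.79 FPKM in KO and 4.61 ± 0.84 FPKM in WT (SD, n = 3 each), a log2 difference of -0.09 (SE 0.27, 95% confidence interval -0.75 to 0.57, limma adjusted p = 0.9999). Of the 22 reference junctions, 18, 21 and 22 were assembled in the KO libraries and 19, 22 and 22 in the WT libraries, in transcripts of 300 nt or more. The transcript was in 1 piece of 23 exons in KO replicate 3 and WT replicates 2 and 3, and in several pieces elsewhere.

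Pericyte and smooth muscle markers, which belong to the cells best known for Pdgfrb, summed to 35.7, 50.5 and 49.2 FPKM in the KO and 35.2, 56.0 and 40.9 FPKM in the WT libraries. By this sum both replicate 1 libraries were lowest here too. Of 12 such markers 8 were tested and 0 passed; Mcam, an adhesion molecule, and Acta2, smooth muscle actin, were highest, at means of 10.5 and 7.10 FPKM. Rgs5, Notch3, Des, Acta2, Tagln and Myl9 were lowest in the replicate 1 library of each genotype. Others were not: Mcam was highest in WT replicate 1 (15.4 FPKM), and Kcnj8 and Anpep in KO replicate 1 (4.12 and 5.86 FPKM). In WT replicate 1 only 9.57% of Rgs5 and 9.62% of Abcc9 was assembled. Higd1b was listed at 0 in all 6 libraries. Whether these cells contributed to the Pdgfrb level was not tested, and in bulk RNA fewer cells of a type cannot be told apart from less RNA per cell.

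Pdgfa (ENSMUSG00000025856.15, chromosome 5, 138976014 to 138997370, minus strand), whose product is the chief mitogen of OPCs, was the most even of the ligands. It was 20.5, 20.4 and 16.7 FPKM in the KO and 22.99, 20.4 and 15.2 FPKM in the WT libraries. In each genotype replicate 3 was lowest and replicate 1 highest, and the groups overlapped. The means were 19.2 ± 2.17 FPKM and 19.6 ± 3.96 FPKM (SD, n = 3 each). The log2 difference was -0.01 (SE 0.18, 95% confidence interval -0.45 to 0.42, limma adjusted p = 0.9999).

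Only the short form of Pdgfa was assembled. The junction from exon 5 to exon 7, which skips the exon 6 printed above, carried 24.1, 24.3 and 19.9 FPKM in the KO and 25.8, 24.1 and 17.4 FPKM in the WT libraries. Neither junction of exon 6 was assembled in any library, which for an assembly does not show that the long form was absent. An upstream first exon was used beside the main one in 4 libraries, at 7.18, 7.58 and 5.16 FPKM in the KO and 7.35 FPKM in WT replicate 2. This upstream exon was spliced into the main first exon in KO replicates 1 and 2 and WT replicate 2. In KO replicate 3 it was spliced to exon 2 instead, so the 4 values are not of 1 form. It made up 25.9% to 31.2% of spliced Pdgfa transcripts there and was listed at 0 in WT replicates 1 and 3. The genotypes overlapped, and the difference in its use was not tested.

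A gene on the opposite strand, 6330403L08Rik (138995056 to 139000577), starts beside Pdgfa. It was 3.73, 2.67 and 2.61 FPKM in the KO and 4.04, 3.04 and 2.49 FPKM in the WT libraries. Of the 2942 exonic bases of Pdgfa, 813 are shared with another annotated gene and were left out of its level. No source used here says whether the libraries keep strand, so reads over such bases may come from either gene.

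Pdgfc (ENSMUSG00000028019.9, chromosome 3, 81036416 to 81214040, plus strand), a ligand of the alpha receptor, was 2.22, 3.62 and 3.81 FPKM in the KO and 2.63, 3.76 and 3.53 FPKM in the WT libraries. The replicate 1 libraries were the lowest of both genotypes and the groups overlapped. The means were 3.22 ± 0.87 FPKM and 3.31 ± 0.60 FPKM (SD, n = 3 each), a log2 difference of -0.04 (SE 0.21, 95% confidence interval -0.55 to 0.47, limma adjusted p = 0.9999). In WT replicate 1 the gene was in pieces, with 3 of 5 junctions, against 5 of 5 in the other libraries.

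The extra exon of Pdgfc was assembled in WT replicate 2, at 0.768 FPKM, and in WT replicate 3, at 1.43 FPKM, and was listed at 0 in the other 4 libraries. The plain junction from exon 1 to exon 2 carried 2.37, 4.08 and 4.08 FPKM in the KO and 2.84, 3.24 and 2.37 FPKM in the WT libraries. With 2 of 3 WT libraries and 0 of 3 KO libraries the pattern was not tested, and WT replicate 1 shares the 0 with the KO libraries.

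**Figure D3:**
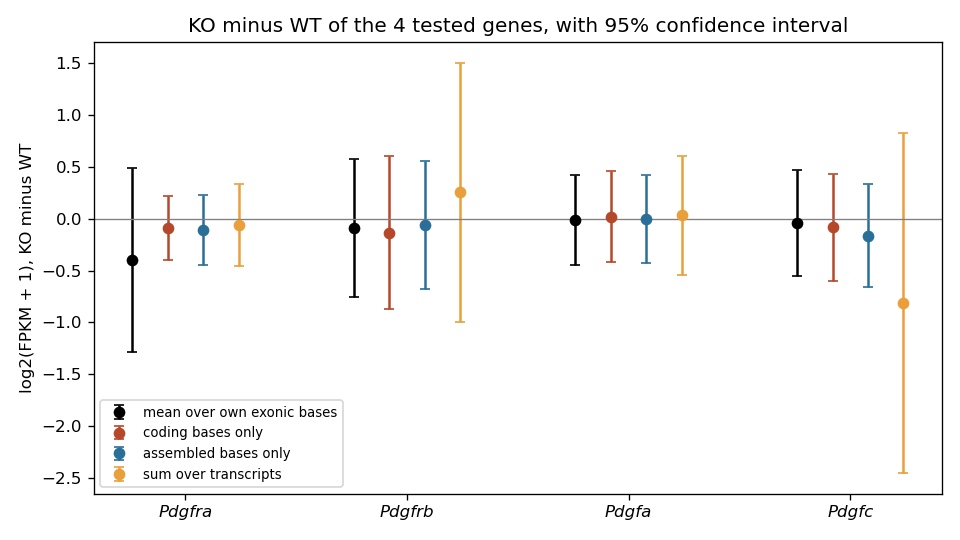
KO minus WT on the log2(FPKM + 1) scale (vertical axis) for the 4 tested genes, with points for 4 ways of making the gene value and bars for the 95% confidence interval of limma. Every interval includes 0; for Pdgfra the interval narrows from -1.29 to 0.49 over all own exonic bases to -0.40 to 0.22 over coding bases.

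Pdgfb (ENSMUSG00000000489.7, chromosome 15, 79995874 to 80014977, minus strand), the ligand that binds both receptors, was low everywhere and separated the genotypes in level. It was 1.30, 0.807 and 0.728 FPKM in the KO and 0.275, 0.375 and 0.218 FPKM in the WT libraries, so every KO library lay above every WT library. The means were 0.944 ± 0.309 FPKM and 0.289 ± 0.079 FPKM (SD, n = 3 each), a difference of 0.58 in log2(FPKM + 1). The exact two-sided permutation test gave p = 0.1, the smallest that 3 against 3 allows. Among the 1520 genes with a mean of 0.3 to 1 FPKM, 5.92% had all KO libraries above all WT libraries. In a limma fit without the filter on low values Pdgfb had an unadjusted p of 0.00639 and an adjusted p of 0.9998.

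The separation of Pdgfb came with a difference in assembled extent. Of its own exonic bases, 98.7%, 96.7% and 98.7% were assembled in the KO libraries, against 14.2%, 80.9% and 52.4% in the WT libraries. All 6 junctions were present in each KO library, and 0, 3 and 2 of them in the WT libraries. Averaged over the assembled bases alone, Pdgfb was 1.31, 0.834 and 0.737 FPKM in the KO and 1.93, 0.463 and 0.416 FPKM in the WT libraries. On that measure the groups overlapped, through WT replicate 1, and the log2 difference was 0.09. The WT replicate 1 value rests on 1 unspliced piece of 418 nt, and 0% of the coding bases were assembled there. Over coding bases, a measure added after seeing the data, Pdgfb was 1.44, 0.834 and 0.737 FPKM in the KO libraries. It was 0, 0.219 and 0.132 FPKM in the WT libraries, without overlap (log2 difference 0.83). In KO replicate 2 the authors' assembler gave the full transcript 0.834 FPKM with bounds of 0.670 and 0.999, and in WT replicate 2 it gave a piece of 4 exons 0.515 FPKM with bounds of 0.344 and 0.686.

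Cell types known for Pdgfb also differed between libraries. Microglia and macrophage markers summed to 157.5, 159.8 and 289.5 FPKM in the KO and 127.6, 90.5 and 130.1 FPKM in the WT libraries, without overlap. All 9 tested markers of these cells were higher in KO, 5 of them without overlap and with an unadjusted p under 0.05, but 0 passed after adjustment. One of the 9, Aif1, named after its values were seen, reached the mean of 1 FPKM only through the KO libraries, at means of 1.81 and 0.674 FPKM in KO and WT. Tyrobp, an adaptor of their receptors, had means of 40.5 and 29.4 FPKM and Ctss, a lysosomal protease, 68.2 and 47.0 FPKM in KO and WT. The share of all tested genes without overlap in either direction was 5.07%. P2ry12, a defining marker of resting microglia named after its values were seen, was listed at 0 in all 3 WT libraries and KO replicate 2, and was 0.157 and 0.281 FPKM in KO replicates 1 and 3.

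Endothelial markers summed to 25.5, 16.0 and 8.12 FPKM in the KO and 25.1, 7.68 and 8.34 FPKM in the WT libraries, which overlapped. Cldn5 and Cdh5, junction proteins of vessels, were the highest of these, and Ly6c1 was listed at 0 in all 6 libraries. The part of either cell type in the Pdgfb level was not tested.

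Pdgfd (ENSMUSG00000032006.15, chromosome 9, 6168584 to 6378850, plus strand), a ligand of the beta receptor, was listed at 0 in both replicate 1 libraries. It was 0.561 and 0.847 FPKM in KO replicates 2 and 3 and 0.673 and 0.895 FPKM in WT replicates 2 and 3, so the genotypes overlapped. The exact two-sided permutation test on log2(FPKM + 1) gave p = 0.8. A listed 0 means that nothing of 300 nt or more was assembled. The assembled extent differed where the gene was found. Of 6 reference junctions, 0, 5 and 5 were present in the KO and 0, 6 and 6 in the WT libraries. Exon 6 was assembled over 2.79% and 7.44% in KO replicates 2 and 3 and over 100% in WT replicates 2 and 3. Of the coding bases, 70.1% and 82.1% were assembled in those KO libraries and 100% in those WT libraries. The difference in extent was not tested.

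Both forms of exon 2 of Pdgfd were present wherever the gene was assembled. The longer form, with the 18 nt printed above, carried 0.335 and 1.346 FPKM in KO replicates 2 and 3 and 0.946 and 0.569 FPKM in WT replicates 2 and 3. The shorter form carried 1.48 and 0.632 FPKM in those KO libraries and 0.407 and 0.755 FPKM in those WT libraries. Which form was higher differed between the 2 libraries of each genotype.

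**Figure D4:**
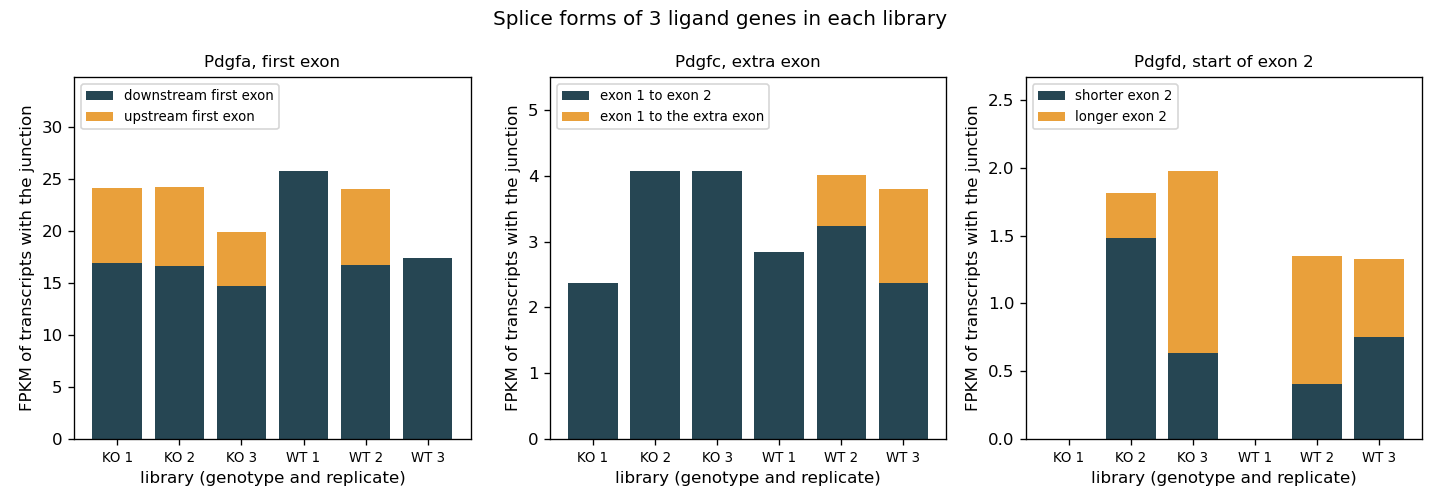
FPKM of assembled transcripts (vertical axes) that carry each splice form of Pdgfa, Pdgfc and Pdgfd in the 6 libraries (horizontal axes), stacked by form. The upstream first exon of Pdgfa appears in 4 libraries, the extra exon of Pdgfc in WT replicates 2 and 3, and both starts of Pdgfd exon 2 in the 4 libraries that are not replicate 1.

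Replicate number ran through several of these genes. Averaged over own exonic bases, Pdgfrb, Pdgfc and Pdgfd were lowest in the replicate 1 library of each genotype, whereas Pdgfa was highest there. For Pdgfa and Pdgfc this depended on the measure. Over coding bases Pdgfa was 22.1 FPKM in KO replicate 1 and 22.3 FPKM in KO replicate 2. Over assembled bases Pdgfc was 4.06, 4.01 and 3.80 FPKM in the WT libraries. The sum of astrocyte markers followed the number as well. It was 302.4 and 236.5 FPKM in the KO and WT replicate 1 libraries and 513.6 to 796.3 FPKM in the other 4. Gfap, the highest of them, was 57.9 and 32.1 FPKM against 178.3 to 400.9 FPKM. Aqp4, Aldh1l1, Slc1a3, Slc1a2, Aldoc and Fgfr3 were also lowest in the replicate 1 library of each genotype. Gja1, S100b and Sox9 were not, with Sox9 at 42.9, 35.95 and 25.6 FPKM in the KO libraries. Fibroblast and meningeal markers were low, as a sum, in both replicate 1 libraries and in KO replicate 2. Among them, the collagen gene Col3a1 was 12.5 and 12.7 FPKM in the replicate 1 libraries and 11.4 to 45.1 FPKM in the other 4, and Col1a1 was 10.0 and 11.2 FPKM against 9.97 to 34.6 FPKM. Their part in the ligand and receptor levels was not tested.

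Other marker lists gave the makeup of the cultures. Of 12 tested OPC markers 0 passed, with 3 higher and 9 lower in KO. Their median log2 difference was -0.14, against -0.01 over all genes tested. Of these, 2 lay lower in KO without overlap, beside 5.07% of all genes tested in either direction. Of 8 tested markers of mature oligodendrocytes 0 passed; Cnp, an enzyme gene of myelin, averaged 141.5 FPKM. Of 10 tested neuron markers 0 passed; Tubb3 averaged 73.4 FPKM, and Stmn2 was 68.0 FPKM in WT replicate 1 against 10.1 to 19.7 FPKM in the other 5 libraries.

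Genes that prepare PDGF ligands or present them to the receptors were tested in 9 of 12 cases, and 0 passed. Their median log2 difference was 0.10, against -0.01 over all genes tested, with 7 higher and 2 lower in KO. Plau, urokinase, which can cut PDGF-D, was 4.28, 3.70 and 3.54 FPKM in the KO and 2.88, 2.59 and 2.88 FPKM in the WT libraries. It was the 1 gene of the 9 tested without overlap, beside 5.07% of all genes tested (log2 difference 0.35, SE 0.13, limma adjusted p = 0.9999). Plat, the tissue plasminogen activator that cuts PDGF-C, averaged 64.2 ± 13.2 FPKM in KO and 52.8 ± 5.07 FPKM in WT (SD, n = 3 each). Sparc, a matrix protein that binds PDGF, was the highest, at 202.1 ± 12.3 and 178.5 ± 14.5 FPKM.

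Adaptors and effectors, which carry the signal from the receptor tails, were all tested (33 of 33) and 0 passed. Their median log2 difference was -0.02, with 13 higher and 20 lower in KO. Shc1, an adaptor that couples receptors to Ras, was 13.3, 9.63 and 9.62 FPKM in the KO and 7.14, 8.07 and 7.85 FPKM in the WT libraries, without overlap (log2 difference 0.43, SE 0.15, limma adjusted p = 0.9999). Sos1, a Ras activator, and Pik3r1, a regulatory subunit of PI3 kinase, lay the other way without overlap, at means of 8.80 and 10.4 FPKM and of 52.1 and 58.5 FPKM in KO and WT. Of the 33 genes, 1 thus lay higher and 2 lower in KO without overlap, beside 5.07% of all genes tested in either direction. Fyn, a Src family kinase, and Akt1, a kinase downstream of PI3 kinase, were the highest, at means of 115.6 and 99.6 FPKM.

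Attenuators, which end or limit receptor signals, were tested in 17 of 17 cases and 0 passed. Their median log2 difference was 0.00, with 9 higher and 8 lower in KO. Inpp5d, a lipid phosphatase mainly of blood-derived cells, was 1.30, 1.26 and 2.30 FPKM in the KO and 0.431, 0.601 and 0.756 FPKM in the WT libraries. It averaged 1.62 FPKM in KO and 0.596 FPKM in WT, so it reached the mean of 1 FPKM required for the test only through the KO libraries. Its values are therefore given as a description, without the test. Inpp5d is still counted among the 17 tested and the 9 higher in KO, and in the median. The microglia and macrophage markers given above lay in the same direction, and their part in the Inpp5d level was not tested. Nf1, which inactivates Ras, averaged 10.3 and 12.1 FPKM, and Dusp6, a phosphatase that limits kinase signals, 22.6 and 20.2 FPKM in KO and WT. Spry2 and Spry1, inhibitors induced by receptor signals, were the highest, at means of 44.7 and 43.2 FPKM.

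Related receptors and ligands of the same kinase classes were tested in 8 of 15 cases and 0 passed. Their median log2 difference was 0.18, with 6 higher and 2 lower in KO. Csf1r, the receptor of macrophage colony-stimulating factor and itself a microglia marker, was 7.29, 4.81 and 13.1 FPKM in the KO and 5.53, 2.35 and 4.52 FPKM in the WT libraries, with overlap. Its ligand gene Csf1 averaged 14.4 and 11.8 FPKM in KO and WT. Vegfb and Vegfa, vascular growth factors of a related family, were the highest and averaged 52.8 and 13.3 FPKM.

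**Figure D5:**
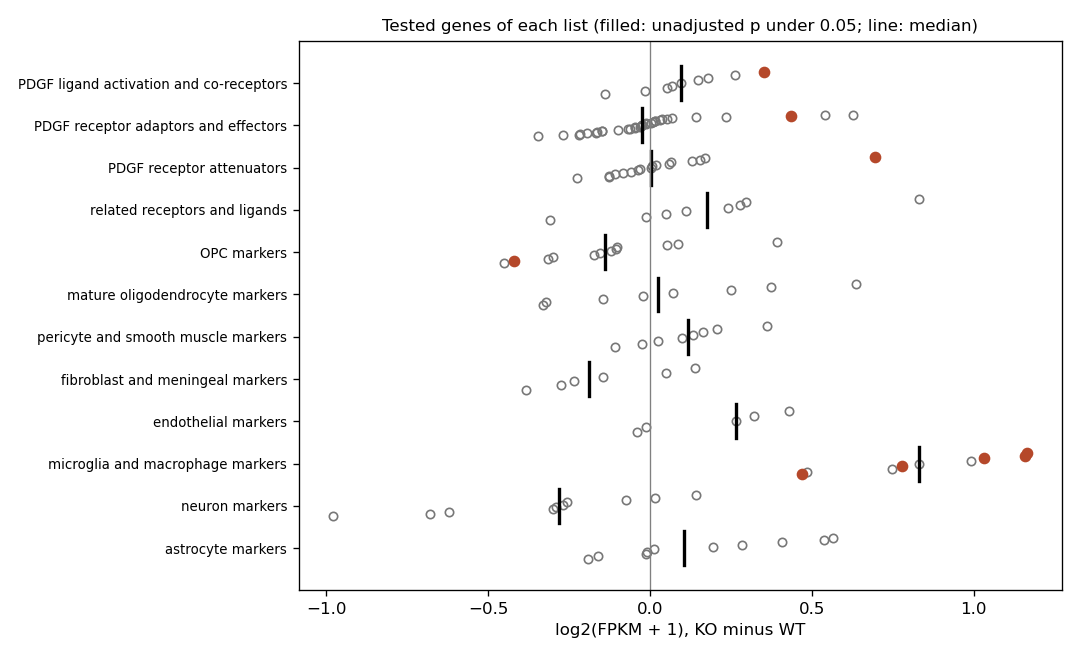
KO minus WT on the log2(FPKM + 1) scale (horizontal axis) for each tested gene of 4 pathway and 8 marker lists (rows); filled points have an unadjusted limma p under 0.05 and black lines are medians. The pathway lists have medians from -0.02 to 0.18, and all 9 microglia and macrophage markers lie above 0. Inpp5d, the filled point among the attenuators, and Aif1, a microglia marker, reached the mean of 1 FPKM only through the KO libraries.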

How the data were processed

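The submitters' processing notes name the mm10 build and, as tools, Cuffdiff 2.2.1, Cufflinks 2.2.1, TopHat2 2.1.1 and FastQC. Each deposited file is the assembly of 1 library, with an FPKM value and its bounds for each transcript; the score column that the authors deposited was not used. The transcripts carry no gene names and were matched by position to GENCODE M21, which is on the same build. A gene's value is its FPKM per base, added up over transcripts of 300 nt or more and averaged over the exonic bases it shares with no other gene, of which 200 were required. Reads were not counted in these files, so no counting interval was used.

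Genes that averaged at least 1 FPKM were compared in limma 3.58.1 (R 4.3.3) after the transformation log2(FPKM + 1) (two-sided, genotype as the only term, Benjamini-Hochberg over all genes tested). For low genes such differences understate the fold change. Single values were compared with exact permutation tests in Python 3.11.15. A base average falls where part of a gene is not assembled. In simulated KO and WT data with 12040 genes, 200 of them changed, the fit recovered 36% of 1-unit and 83% of 2-unit changes in log2, with 7 false calls. The simulated noise was normal and independent between libraries. Deviations shared by same-numbered libraries and unassembled stretches were not simulated, so these shares need not hold for the real libraries or the PDGF genes.

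The PDGF genes and the 12 lists of pathway and marker genes (161 entries, 157 genes) were chosen with earlier results of these data known. From each pathway list the 3 tested genes with the smallest p and the 2 highest were named, and from each marker list the 2 highest and any listed at 0 throughout. One gene that this rule takes is left out of the text. For each receptor the 5 genes most alike by Pearson correlation were named, among genes at 5 FPKM or more and never at 0.

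Same-numbered KO and WT libraries, numbered in their titles, shared deviations from the means of their groups (r = 0.370, 0.199 and 0.294 over genes, which are not independent; differently numbered libraries gave -0.278 to 0.0233), so the numbers were taken to pair the samples. Alternatives covered the pseudocount, filters, scaling, the replicate block, left-out libraries, robust and weighted fits and other gene values.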

Additional observations from a re-analysis of the deposited data

How the results depend on the processing

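No PDGF gene passed under any setting that tested it (adjusted p 0.832 to 1 by limma), and Pdgfb and Pdgfd were tested under 2. With the replicate block 0 of the 4 tested genes passed. There Pdgfra, Pdgfrb, Pdgfa and Pdgfc had limma adjusted p of 0.832, 0.912, 0.978 and 0.921. The block changed the SE of the log2 difference from 0.36 to 0.45 for Pdgfra and from 0.27 to 0.20 for Pdgfrb. The SE fell from 0.18 to 0.086 for Pdgfa and from 0.21 to 0.10 for Pdgfc. Averaging over coding bases, with or without the block, was chosen after seeing the data. Unknown read numbers and unassembled stretches limit the low genes most, Pdgfb and Pdgfd.

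Across all genes, 1 was called. The count was 0 with a pseudocount of 0.1 or 5, a mean of 5 FPKM, the replicate block (511 genes with an unadjusted p under 0.05), the sum over transcripts, all exonic bases, and coding bases with the replicate block, and 2 over assembled bases. It was 1 to 17 with 1 library left out (17 without KO replicate 1) and 30 without the pair of libraries numbered 1; the cause was not tested.

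The KO minus WT differences in log2 with 1 library left out ran from -0.75 to -0.19 for Pdgfra, -0.32 to 0.17 for Pdgfrb, -0.17 to 0.11 for Pdgfa, 0.46 to 0.66 for Pdgfb, -0.16 to 0.14 for Pdgfc and -0.32 to 0.21 for Pdgfd. Without the replicate 1 pair Pdgfrb, Pdgfa and Pdgfc turned to 0.07, 0.06 and 0.02. With the sum over transcripts Pdgfrb, Pdgfa, Pdgfb and Pdgfd turned to 0.26, 0.03, -0.44 and 0.03, and Pdgfc moved from -0.04 to -0.81; this sum counts a gene in pieces several times. Pdgfa was 0.00 with upper quartile scaling and 0.02 over coding bases, with or without the replicate block. Pdgfd was 0.17 over assembled bases and 0.01 over coding bases.

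For the order of levels, leaving out 1 library gave differences of 2.1 to 2.38 (Pdgfra over Pdgfa), 1.77 to 2.02 (Pdgfa over Pdgfrb), 0.31 to 0.39 (Pdgfrb over Pdgfc), 1.32 to 1.61 (Pdgfc over Pdgfb) and -0.09 to 0.28 (Pdgfb over Pdgfd). None could pass, since 5 libraries allow no exact permutation p under 0.0625. The first 4 were 2.87, 2.04, 0.25 and 1.31 over assembled bases and 2.93, 1.37, 0.63 and 1.20 with the sum, none past the adjusted threshold. Pdgfb over Pdgfd was -0.25 over coding bases.

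List medians with 1 library left out ran from 0.02 to 0.22 for ligand activation, -0.06 to 0.01 for adaptors, -0.04 to 0.09 for attenuators and 0.03 to 0.27 for related receptors. With the sum over transcripts, where the median of all genes was -0.25, adaptors and attenuators were at -0.11 and -0.10.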

Other observations

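A single unspliced transcript lay upstream of Pdgfra in every library, ending 477 to 660 bases before the annotated gene. Its FPKM was 13.4, 7.27 and 5.95 in the KO and 21.9, 8.14 and 2.36 in the WT libraries, and the groups overlapped. It was under 300 nt in 4 of the 6 libraries and carries no strand.

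The genes whose levels over the 6 libraries were most like Pdgfra were Sh2d5, Rbx1, 4931428F04Rik, Pclaf and Ift46 (Pearson r = 0.992, 0.974, 0.968, 0.956 and 0.953 on the log2 scale, described without a test). Over coding bases they were Hoxb4, Pdcd10, Svip, Armc1 and Eif3j1 (r = 0.996, 0.990, 0.988, 0.983 and 0.979), and 0 genes were in both sets. For Pdgfrb they were Camkk2, Dip2b, Tcf19, Pank4 and Oard1 (r = 0.970, 0.966, 0.966, 0.965 and 0.965), and over coding bases Pop1, Nr1d2, Cep63, Pdzrn3 and Phlpp1 (r = 0.982, 0.982, 0.974, 0.971 and 0.970), again with 0 in both sets. All these genes were read from the same 6 libraries, and how much of each was assembled was not examined.

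Nras and Crk, effectors of the PDGF receptors named after their values were seen, had 1 library with little of the gene assembled. Nras was 12.7 FPKM in WT replicate 3, with 19.2% assembled, against 34.4 to 40.1 FPKM in the other 5 libraries. Crk was 9.64 FPKM in WT replicate 3, with 20.4% assembled, against 33.2 to 39.6 FPKM in the other 5 libraries.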
